A study of Homo sapiens with 6 samples.

Results

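The miR-130 and miR-301 family is a group of miRNAs from several genes that share 1 seed, the bases at positions 2 to 8 that pair with a target mRNA. Its members were taken as every miRNA in the authors' deposited fold change table whose name starts with miR-130a, miR-130b, miR-301a or miR-301b. This gave 3 of 177 named miRNAs, namely miR-130a-3p, miR-301a-3p and miR-130b-3p. The assay has 800 miRNA rows in all. miR-301b is not among the named rows and was not analysed here. miR-454-3p, which has the same seed but lies outside the naming rule, is described beside the members.

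The cells were RMUG-S-ip1, an established line of human mucinous ovarian cancer, treated with a control siRNA (3 libraries) or with siPRKRA, an siRNA against PRKRA (3 libraries). PRKRA encodes PACT, a protein that binds double-stranded RNA and is a partner of Dicer, the enzyme that cuts miRNA precursors. Small RNA was measured from 100 ng of total RNA per library with the NanoString nCounter miRNA assay, which counts colour-coded reporters on single captured molecules without amplification. All 6 libraries came from the same cell line and differed, per the labels, only in the siRNA. The labels do not say whether replicates were separate cultures, so the tests reflect only how far these libraries differ from each other, which may be technical. PRKRA mRNA was not analysed here, and the degree of silencing is unknown.

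miRNAs that share a seed can repress overlapping sets of mRNAs, so the family acts as a pool to which each gene contributes. miR-130a-3p is known from blood vessel growth, where it represses the homeobox genes MEOX2 and HOXA5. miR-301a-3p and miR-130b-3p are often described as growth-promoting in epithelial tumours.

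The mature sequences of the low members are printed to show what they share and where they part. They run 5′ to 3′, with the seed in capitals, and come from RefSeq tables of the build GRCh38.p14.
miR-301a-3p: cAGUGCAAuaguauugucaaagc
miR-130b-3p: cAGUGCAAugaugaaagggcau
miR-454-3p: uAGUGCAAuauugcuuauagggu
Of the 183 single names behind the 177 entries, 80.9% matched a RefSeq mature miRNA by name, and of those matched names 3, printed above, held this seed. miR-130a-3p matched no mature sequence in the reference used, so its own seed was not read here. miR-301a-3p and miR-130b-3p have their first 9 bases in common and differ in the 3′ part. miR-454-3p starts with another base. A second pair, miR-148a-3p and miR-148b-3p of the miR-148 and miR-152 family, is shown because the first 6 bases of the family seed recur in it from position 3, while its full seed differs.
miR-148a-3p: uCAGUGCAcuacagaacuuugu
miR-148b-3p: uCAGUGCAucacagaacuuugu

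The members come from 3 places in the genome (RefSeq, GRCh38.p14). MIR130A lies on the plus strand at chr11:57641198-57641286, within the bounds of its noncoding host gene MIR130AHG. MIR301A lies on the minus strand at chr17:59151136-59151221 and MIR454 at chr17:59137758-59137872. Both lie within the bounds and on the strand of the protein-coding gene SKA2, 13263 bases apart. MIR130B lies on the plus strand at chr22:21653304-21653385, 245 bases from MIR301B. The RefSeq tables used here give gene bounds and no exons, so intron or exon positions were not read.

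The deposited values are a signal, made of counts above a background times 1 factor per library, with low values set to a floor. Before the factor, the miRNA rows above the floor summed to 51641 to 56192 counts in control siRNA libraries and to 142684 to 305261 in siPRKRA libraries. The factors were 1.32 to 1.53 in control siRNA libraries and 0.231, 1.09 and 0.469 in siPRKRA replicates 1, 2 and 3. The same value therefore rested on the most counts in siPRKRA replicate 1. siPRKRA replicate 2 stood apart, since miR-4454 and miR-720 made up 72.2% of its miRNA signal, against 4.04% to 8.42% in the other libraries. Without miR-4454 and miR-720, siPRKRA replicate 2 held 63155 counts, against 47238 to 52666 in control siRNA libraries. On the same measure siPRKRA replicates 1 and 3 held 292822 and 134720 counts. The epithelial markers miR-200c-3p, miR-205-5p, miR-141-3p and miR-200b-3p were all among the tested miRNAs, at control siRNA means of 5927, 2687, 470.4 and 61.5, whereas miR-200a-3p and miR-429 were at the floor in every control siRNA library. The 6 epithelial markers summed to 8540 to 9753 in control siRNA and to 7074 to 7810 in siPRKRA libraries. Of the markers listed for other cell types, 1 of 5 leukocyte, 1 of 4 erythroid, 1 of 2 endothelial, 0 of 5 fibroblast and smooth muscle, 0 of 4 muscle and 0 of 1 liver miRNAs were named in the files. These were miR-155-5p (10.6 to 84.1 in control siRNA and 14.9 to 19.2 in siPRKRA libraries), miR-144-3p (6.07 to 151 and 1.09 to 39.4) and miR-126-3p (214 to 229 and 161 to 216). The part of these markers in the results was not tested.

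miR-130a-3p carried nearly all of the family's signal. Its values were 3719.7, 3727 and 3724 in control siRNA replicates 1, 2 and 3. In siPRKRA replicates 1, 2 and 3 they were 3175, 2704 and 3218. All 3 siPRKRA libraries lay below all 3 control siRNA libraries, and siPRKRA replicate 2 was the lowest. The cells were measured in bulk, so less of a miRNA per cell and fewer cells that hold it cannot be told apart. With a mean of 3378 over the 6 libraries it ranked 8 among the 800 miRNA rows. In single libraries its rank ran from 4 (control siRNA replicate 3) to 9 (siPRKRA replicate 2).

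miR-301a-3p was much lower and still well above the floor. Its values were 109, 84.1 and 120.2 in control siRNA replicates 1, 2 and 3, and 134, 101 and 135 in siPRKRA replicates 1, 2 and 3. siPRKRA replicate 2 lay within the control range, so the groups overlapped. It ranked 62 by its mean of 114, and between 60 and 74 in single libraries.

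miR-130b-3p was listed at the floor in 4 of 6 libraries. It stood at 1.5, 1.53 and 1.32 in control siRNA replicates 1, 2 and 3, each the floor of its library. In siPRKRA replicates 1, 2 and 3 it had 11.4, 1.09 and 7.92, of which 1.09 was the floor. miR-454-3p, whose gene lies in SKA2 as MIR301A does, was at the floor in the same 4 libraries and had 20.9 and 9.8 in siPRKRA replicates 1 and 3. Of the 7 names listed for the genomic neighbours of the members, 3 were named in the files and 1, miR-301a-3p, was tested. Both miR-130b-3p and miR-454-3p were above the floor only in the siPRKRA libraries with the smallest factors, those in which 1 count was worth 0.231 and 0.469 units of value.

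**Figure D1:**
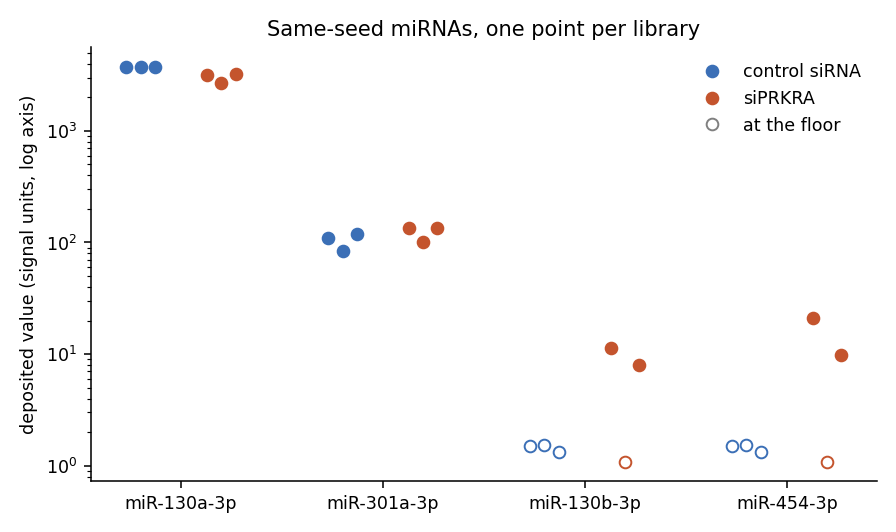
Deposited value (signal units, log axis) of miR-130a-3p, miR-301a-3p, miR-130b-3p and miR-454-3p, 1 point per library, in blue for control siRNA and orange for siPRKRA, with replicates 1 to 3 from left to right and open points at the floor. miR-130a-3p lies between 2704 and 3727 and miR-301a-3p between 84.1 and 135, while the lowest pair leaves the floor in siPRKRA replicates 1 and 3 only.

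The order of the levels was the same in each library as far as it could be read. miR-130a-3p exceeded miR-301a-3p in 6 of 6 libraries, with ratios of values from 23.7 to 44.3. miR-301a-3p exceeded miR-454-3p in 6 of 6 libraries. miR-454-3p and miR-130b-3p were tied at the floor in 4 libraries. In siPRKRA replicate 1 they had 90.3 counts (exact Poisson 95% interval 72.4 to 111) and 49.4 counts (36.3 to 64.8) before the factor, which did not overlap. In siPRKRA replicate 3 they had 20.9 counts (13.0 to 32.1) and 16.9 counts (9.90 to 27.2), which did. These intervals cover counting error only and leave out the error of the subtracted background. Different probes may capture their targets with different efficiency, so a ratio between miRNAs is one of signals and not of molecules.

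miR-130a-3p made up 97.1%, 97.8% and 96.8% of the summed value of the 3 members in control siRNA replicates 1, 2 and 3. Its share was 95.6%, 96.4% and 95.7% in siPRKRA replicates 1, 2 and 3. The share was lower in every siPRKRA library than in any control siRNA library, by 1.33 percentage points between the means (exact two-sided permutation p = 0.1, the smallest that 3 against 3 libraries allow). It mostly restates the ratio of miR-130a-3p to miR-301a-3p described below and is not a separate result. Of the ratios of miR-130a-3p to the 105 other tested miRNAs, 35 (33.3%) were lower in siPRKRA without overlap. The summed value of the family differed by -0.28 on the log2 scale between siPRKRA and control siRNA (exact two-sided permutation p = 0.1), and by 1.39 when libraries were scaled by the graded control probes. That name is given here to the 5 of 12 control rows that exceeded 100 in every library, since the files do not say what class of control they are. The family sum is almost entirely miR-130a-3p.

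The comparison of siPRKRA with control siRNA asked whether single miRNAs change when the Dicer partner is silenced, and no family member passed. limma was fitted to log2(value + 1) over the 106 miRNAs that reached 30 in at least 3 of 6 libraries, and a miRNA was called at a Benjamini-Hochberg adjusted p under 0.05. Of the 3 members, miR-130a-3p and miR-301a-3p passed the filter on low values and miR-130b-3p did not. Of the 106 miRNAs, 0 (0%) were called in limma, and limma-voom on the counts before the factor also gave 0. With scaling by the graded control probes 22 were called, all higher in siPRKRA and miR-301a-3p among them. At an unadjusted p under 0.05 there were 17 (16% of those tested).

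miR-130a-3p averaged 3723 ± 3.65 (SD, n = 3) under control siRNA against 3032 ± 285 (SD, n = 3) under siPRKRA. The log2 fold change was -0.30 ± 0.11 (SE), with a 95% interval of -0.57 to -0.03. The limma adjusted p was 0.265, and 12 other tested miRNAs had a smaller unadjusted p than its 0.036. The groups did not overlap for 29 of the 106 tested miRNAs (27.4%), and 16 were lower in siPRKRA (15.1%), miR-130a-3p among them. Its estimate lay below the median of all tested miRNAs, which was -0.06, and 26 tested miRNAs had a lower one. The summed epithelial markers, given above, were also lower in siPRKRA libraries without overlap, but most of that sum is miR-200c-3p. Singly, miR-200c-3p and miR-141-3p were lower without overlap, miR-205-5p overlapped, and miR-200b-3p, miR-200a-3p and miR-429 had higher means in siPRKRA, with overlap. For miR-200a-3p (17.2 and 8.86) and miR-429 (6.55 and 3.23) only siPRKRA replicates 1 and 3 were above the floor, so their means depend on the floor.

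The sign of that difference rested on the scaling. Before the factor, miR-130a-3p had 2487, 2443 and 2831 counts in control siRNA replicates 1, 2 and 3, and 13747, 2491 and 6857 in siPRKRA replicates 1, 2 and 3. When libraries were scaled by these control probes, its log2 fold change was 1.37 ± 0.83 (SE; limma adjusted p = 0.122), while the median of all tested miRNAs moved to 1.61. Relative to the median it then lay at -0.24, as it did in the deposited scaling. This likeness follows from the arithmetic, since rescaling a library moves its miRNAs together.

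A share of the miRNA signal within a library needs no factor. Of all miRNA signal, miR-130a-3p made up 4.62%, 4.67% and 4.98% in control siRNA and 4.46%, 1.09% and 4.76% in siPRKRA replicates 1, 2 and 3, with overlap (exact two-sided permutation p = 0.3). Without miR-4454 and miR-720, miR-130a-3p made up 4.85%, 5.10% and 5.31% of the miRNA signal in control siRNA replicates 1, 2 and 3. In siPRKRA replicates 1, 2 and 3 it made up 4.65%, 3.90% and 5.04%. The groups overlapped on this measure, with siPRKRA replicate 3 inside the control range (exact two-sided permutation p = 0.2). For miR-301a-3p the same share was 0.142%, 0.115% and 0.171% in control siRNA and 0.196%, 0.146% and 0.212% in siPRKRA libraries, also with overlap (exact two-sided permutation p = 0.2).

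miR-301a-3p averaged 105 ± 18.5 (SD, n = 3) under control siRNA against 123 ± 19.3 (SD, n = 3) under siPRKRA. Its log2 fold change was 0.24 ± 0.20 (SE; limma adjusted p = 0.512), with a 95% interval of -0.26 to 0.74. The difference was within the spread of the libraries, and the interval leaves room for a change in either direction. It rested on 73.1, 55.1 and 91.4 counts in control siRNA and on 580.3, 93.2 and 288 counts in siPRKRA libraries. With 25 counts per library added back as an assumed background, its estimate was -0.02 ± 0.13 (SE; limma adjusted p = 0.939). The 25 was set here, as the labels and headers give no background rule. The sign for miR-301a-3p also turned with scaling by the 100 highest miRNAs (-0.19), the mRNA rows (-0.31) or the total (-0.19) and in limma-voom (-0.23). Of these, all but the mRNA rows divide by a sum that holds miR-4454 and miR-720. Those miRNAs made up 72.2% of the miRNA signal of siPRKRA replicate 2, so these settings are not separate checks. The graded control probes gave 1.89 (limma adjusted p = 0.0468). Without control siRNA replicate 2 the estimate was 0.094.

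**Figure D2:**
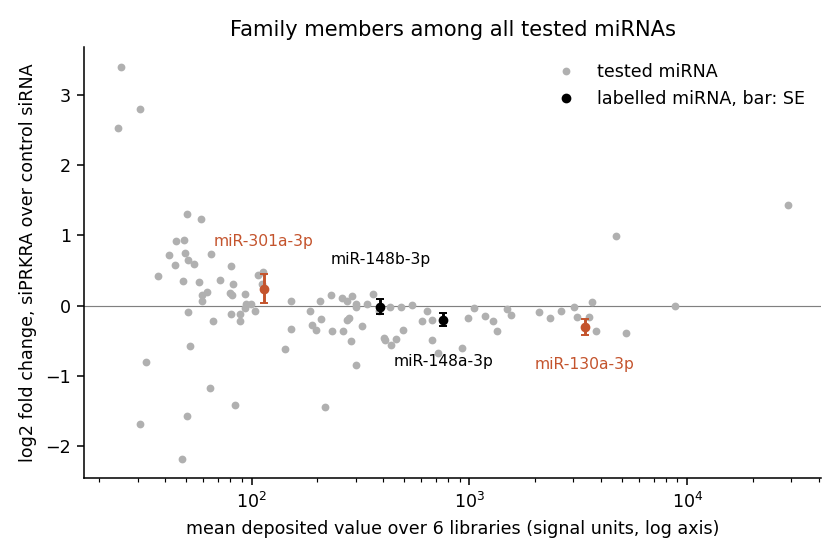
Log2 fold change of siPRKRA over control siRNA against the mean deposited value over 6 libraries (log axis) for the 106 tested miRNAs, in grey. Family members are in orange and the miR-148 pair in black, with bars for the SE; miR-130a-3p lies at -0.30 and miR-301a-3p at 0.24, with 26 tested miRNAs below the former and 24 above the latter, and both lie above 0 once the graded control probes set the scale.

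miR-130b-3p was fitted only in a wider set, the 198 miRNAs that left the floor in any library. There its difference in log2(value + 1) was 1.33 ± 0.71 (SE; limma adjusted p = 0.344), and that of miR-454-3p was 1.69 ± 0.87 (SE; limma adjusted p = 0.332). These sizes depend on the floor and the pseudocount, since 4 of 6 libraries carry no measured level for either miRNA. At the control factors, the value of 11.4 would be 7.47 to 8.67 counts above background and the value of 7.92 would be 5.19 to 6.02 counts. The same pattern, above the floor in siPRKRA replicates 1 and 3 only, was seen in 17 of the 177 named miRNAs (9.6%) and in 17 of all 800 rows (2.12%). The part of the depth of these libraries in the pattern was not tested.

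The ratio of the tested members within a library was compared because it is free of the library factor. On the log2 scale, miR-130a-3p over miR-301a-3p was 5.08, 5.45 and 4.94 in control siRNA replicates 1, 2 and 3. In siPRKRA replicates 1, 2 and 3 it was 4.56, 4.73 and 4.56. Every siPRKRA library lay below every control siRNA library. The means were 5.16 ± 0.27 (SD, n = 3) and 4.62 ± 0.10 (SD, n = 3), a difference of -0.54 (exact two-sided permutation p = 0.1, the smallest possible).

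That shift was not unusual among ratios to miR-130a-3p. Of the 105 other tested miRNAs, 35 (33.3%) had a ratio to miR-130a-3p that was lower in siPRKRA without overlap, 36 (34.3%) did not overlap in either direction, and 25 shifted at least as far as miR-301a-3p, itself included. Taking miR-301a-3p as the base, 27 of 105 ratios (25.7%) were higher in siPRKRA without overlap. The size of the shift also depended on the background: with the assumed 25 counts per library added back the difference was -0.29, still without overlap. Control siRNA replicate 2, with the lowest miR-301a-3p value, had the highest ratio, and without it the difference was -0.39.

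**Figure D3:**
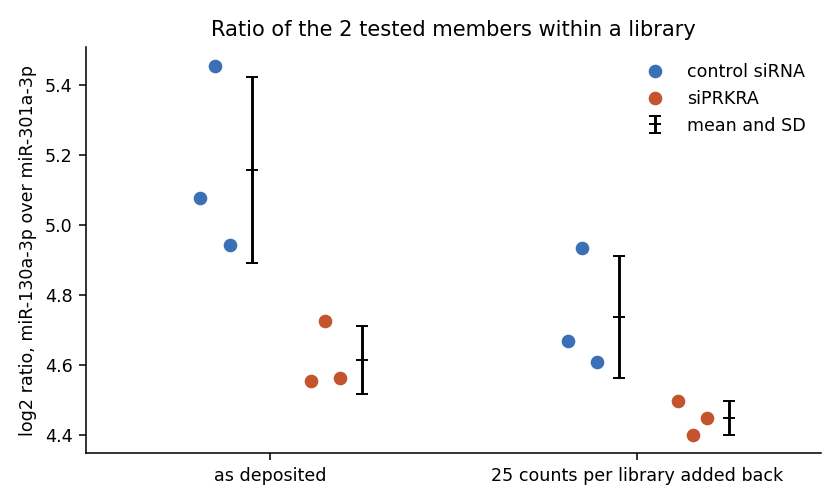
Log2 ratio of miR-130a-3p over miR-301a-3p in each library, in blue for control siRNA and orange for siPRKRA, with group means and SD (n = 3) in black, for the deposited values and with 25 counts per library added back. The siPRKRA libraries lie below the control siRNA libraries in both settings, and the distance between the means goes from -0.54 to -0.29.

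The miR-148 pair, which shares 6 seed bases at a shift of 1 position, had intermediate levels. miR-148a-3p stood at 839, 781 and 808 in control siRNA and at 746, 679.7 and 689 in siPRKRA libraries. Its groups did not overlap, and its log2 fold change was -0.20 ± 0.09 (SE; limma adjusted p = 0.293). miR-148b-3p stood at 413, 360.2 and 402 in control siRNA and at 383, 421 and 358 in siPRKRA libraries, and its log2 fold change stood at -0.02 ± 0.11 (SE; limma adjusted p = 0.949). The log2 ratio of miR-130a-3p to miR-148a-3p was 2.20 ± 0.05 (SD, n = 3) under control siRNA against 2.10 ± 0.12 (SD, n = 3) under siPRKRA, with overlap (exact two-sided permutation p = 0.3). Of the miRNAs in this short list, 2 of 2 tested had a lower estimate in the deposited scaling and 0 were called, against 62 lower estimates and 0 calls among all 106 tested miRNAs.

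The 3 tested miRNAs whose profile over the 6 libraries was most like that of miR-130a-3p were miR-24-3p, miR-361-5p and a probe that reads miR-106a-5p together with miR-17-5p. Likeness was the root mean square difference of log2(value + 1) after each profile was centred, and these had 0.033, 0.055 and 0.076, against a median of 0.316 over 105 miRNAs. All profiles share the same 6 libraries and factors. miR-24-3p, from the clusters it shares with miR-23 and miR-27, had 544, 554 and 561 in control siRNA and 456, 379 and 469 in siPRKRA libraries. miR-361-5p had 296 ± 15.3 (SD, n = 3) and 231 ± 23.7 (SD, n = 3). miR-301a-3p ranked 53 of 105 in likeness to miR-130a-3p, with a difference of 0.316.

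The miRNAs most like miR-301a-3p were miR-27a-3p, miR-512-5p and miR-125b-5p, at 0.131, 0.186 and 0.204. miR-27a-3p had 49.5, 33.7 and 45.2 in control siRNA and 59.0, 50.1 and 53.9 in siPRKRA libraries. Like miR-301a-3p, it was lowest in control siRNA replicate 2. By this measure the profile of miR-301a-3p was thus less close to its nearest miRNAs than that of miR-130a-3p was to its own. miR-301a-3p also rested on fewer counts, 55.1 to 91.4 in control siRNA libraries against 2443 to 2831 for miR-130a-3p. The part of counting error in this was not tested.

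**Figure D4:**
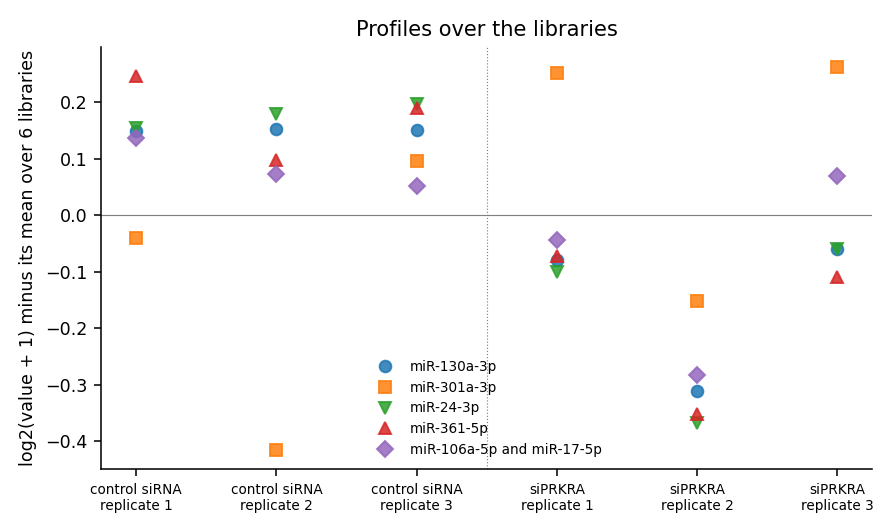
Log2(value + 1) minus its mean over the 6 libraries, by library, for miR-130a-3p, miR-301a-3p and the 3 tested miRNAs most like miR-130a-3p. miR-130a-3p and miR-24-3p nearly coincide and are lowest in siPRKRA replicate 2, whereas miR-301a-3p is lowest in control siRNA replicate 2.

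In level, miR-130a-3p stood between miR-125a-5p, with a mean of 3551, and miR-21-5p, with a mean of 3099. Neither neighbour differed from it beyond the spread of the 6 libraries: miR-130a-3p was the higher of the pair in 4 of 6 libraries against miR-125a-5p (mean log2 difference -0.06 ± 0.32, SD, n = 6) and in 5 of 6 against miR-21-5p (0.12 ± 0.14, SD, n = 6). miR-301a-3p stood between miR-19a-3p, with a mean of 142, and the C19MC miRNA miR-522-3p, with a mean of 113. It was higher than miR-19a-3p in 1 of 6 libraries and higher than miR-522-3p in 3 of 6.

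The spread of miR-130a-3p in the control siRNA libraries was very small. Its coefficient of variation there was 0.098%, the lowest of the 106 tested miRNAs, the next lowest being 0.552% and the median 10.9%. Counting error alone was 1.88% to 2.02% of its value in these libraries, or 69.98 to 75.4 units. The 3 control values therefore lay closer together than counting error, as they did for 30 of the 106 tested miRNAs. In siPRKRA libraries its coefficient of variation was 9.40%, against a median of 21.0%.

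Among miRNAs known from angiogenesis, 13 of 14 listed were named and 12 tested, with 3 higher and 9 lower estimates, 0 called and a median log2 fold change of -0.13, against -0.06 over all tested miRNAs. All 106 tested miRNAs had 44 higher and 62 lower estimates and 0 calls. The 9 lower estimates of the list include that of miR-130a-3p itself. Among the 3 higher ones, miR-296-5p passed the filter on low values only through the siPRKRA libraries. It had 35.1 to 43.6 there and 1.53 to 13.7 in control siRNA libraries. Besides miR-130a-3p, the most abundant were miR-15b-5p (log2 fold change -0.02 ± 0.12, SE), miR-16-5p (-0.37 ± 0.21, SE) and a probe that reads miR-20a-5p together with miR-20b-5p (-0.48 ± 0.25, SE). miR-16-5p had 1421, 1631 and 1409 in control siRNA and 1334, 842 and 1355 in siPRKRA libraries. siPRKRA replicate 2 was the lowest for miR-16-5p, as it was for miR-130a-3p.

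The authors' deposited table gives the same signs for the members. It lists miR-130a-3p with a p-value of 0.065 and an adjusted p of 0.452. For miR-301a-3p the authors' deposited table gives 0.4 and 0.632 from a rank test. For miR-130b-3p and miR-454-3p the authors' deposited table gives an adjusted p of 0.567 each. Of the 177 miRNAs in the authors' deposited table, 2 had an adjusted p under 0.05, and neither was a family member.

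**Figure D5:**
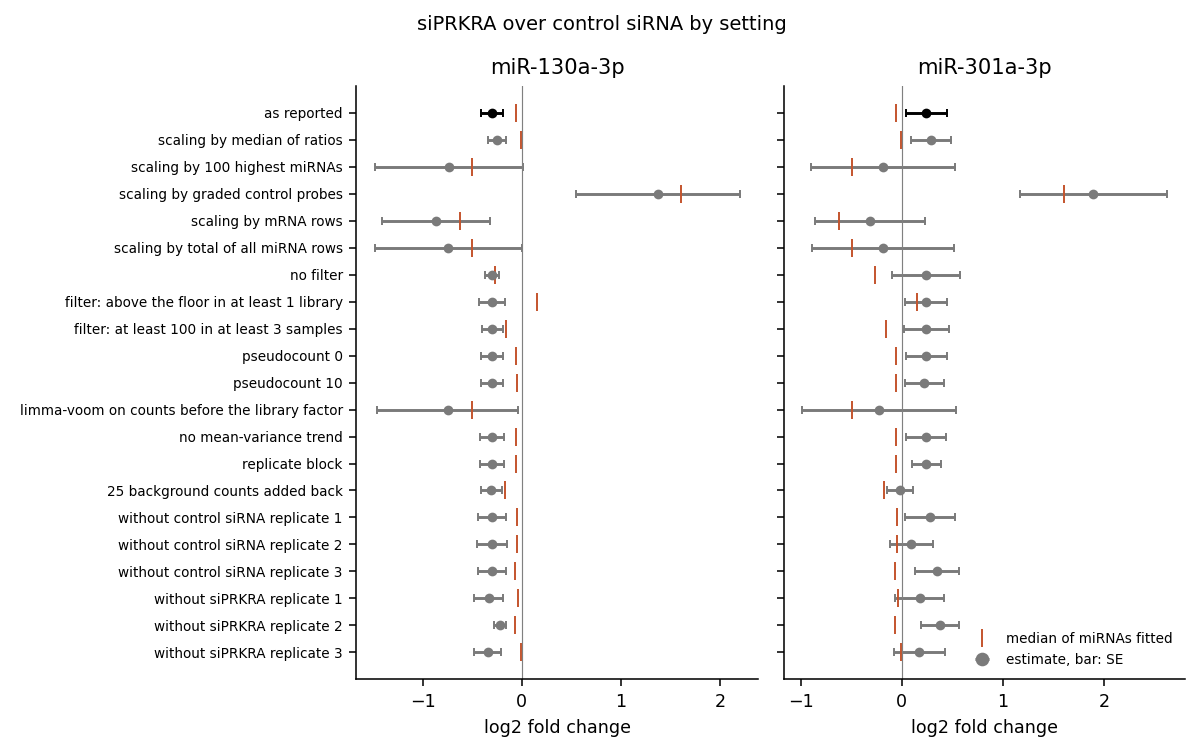
Log2 fold change of siPRKRA over control siRNA with its SE for miR-130a-3p and miR-301a-3p under each setting of scaling, filter, pseudocount, model and libraries, with the median of all miRNAs fitted in that setting as an orange tick. miR-130a-3p stays below 0 except with scaling by the graded control probes (1.37), and miR-301a-3p changes side under 5 settings, with values from -0.31 to 1.89.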

How the data were processed

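nCounter values of 6 libraries (3 control siRNA, 3 siPRKRA) were used. The authors deposited a signal table of 822 rows and a log2 table of its 800 miRNA rows; 2 to the power of the log2 values matched the signal within 0.000234. Per the file headers, the authors' fold change table holds a p-value and adjusted p-value per miRNA. Its group levels are on the log2 scale, and its fold change, the ratio of these log2 levels deposited by the authors, is treated as a score and not used. The labels and headers name no software, background rule or scaling probes for these steps.

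The library factor was recovered from the step between low values; after division 100% of the values checked were whole within 0.1 once the fraction left by background subtraction was removed. As the values are a signal and not counts, limma 3.58.1 (R 4.3.3; lmFit, eBayes with trend) was fitted with group as the only term. Graded control probes is a name given here to the 5 of 12 control rows above 100 in every library, whose class the files do not state. Single values per library were compared by exact permutation tests. Figures were drawn with matplotlib 3.10.9, and other steps used scipy 1.17.1, pandas 2.3.3 and numpy 2.4.6 under Python 3.11.15. The fit was also run on simulated data, with the same spread for all miRNAs and changes larger than those estimated for the tested members. That run therefore does not bear on changes of their size.

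The members and lists were chosen with earlier results of these data known. miRNAs named are the members, the named miRNAs of the same seed, for each tested member the 3 most alike and the next above and below in level, and, from each list, the tested miRNAs of highest mean, at most 4. A further miRNA list of the design is not reported here. The other miRNAs named (miR-4454, miR-720 and the cell type markers) describe the libraries. The labels do not say whether replicate numbers pair the samples. Deviations of same-numbered libraries correlated at 0.17, -0.088 and -0.073 across miRNAs, and those of other pairs at -0.20 to 0.27. With so few libraries these values cannot settle the pairing, and the replicate block is given as an alternative.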

Additional observations from a re-analysis of the deposited data

How the results depend on the processing

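Over 20 alternatives, miR-130a-3p kept a log2 fold change below 0 except with scaling by the graded control probes (1.37), and it passed 0.05 only with no filter (-0.30, limma adjusted p = 0.0057), where 635 of 800 miRNAs passed, mostly ones that never left the floor, which itself differs between libraries. The estimate of miR-301a-3p fell below 0 with scaling by the 100 highest miRNAs (-0.19), the mRNA rows (-0.31) or the total (-0.19) and in limma-voom (-0.23). Of these, all but the mRNA rows divide by a sum that holds miR-4454 and miR-720. The estimate also fell below 0 with the assumed 25 background counts added back (-0.020). With the graded control probes miR-301a-3p passed (1.89, limma adjusted p = 0.0468). Relative to the median of all tested miRNAs, which ran from -0.62 to 1.61 over the 5 scalings, miR-130a-3p lay at -0.24 and miR-301a-3p at 0.29 to 0.31 in each. The summed family value turned to 1.39 with the graded control probes. The number of miRNAs called, 0, became 22 with the graded control probes, 1 with the mRNA rows and 1 without a mean-variance trend.

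With each library left out in turn, log2 fold changes ranged from -0.35 to -0.22 for miR-130a-3p, from 0.094 to 0.38 for miR-301a-3p and from 0.82 to 2.10 for miR-130b-3p. The family sum ranged from -0.33 to -0.20, the ratio of the tested members from -0.65 to -0.39, and the number called from 0 to 4, being 2 without control siRNA replicate 3 and 4 without siPRKRA replicate 2. With the assumed background added back miR-130b-3p went to -0.79, also in a fit over the miRNAs above the floor chosen after seeing the data. At the floor this value holds only the constant times the factor. The ratio of the members kept its direction under all 10 alternatives, but its test cannot pass 0.05.

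With replicate number as a block, 0 miRNAs were called, miR-130a-3p stood at -0.30 (limma adjusted p = 0.344), miR-301a-3p at 0.24 (limma adjusted p = 0.452) and miR-130b-3p at 1.33, the ratio at -0.54 and the sum at -0.28 (exact sign-flip p = 0.25, the smallest possible with 3 pairs). Not every library correlated best with its own number. The cause of the differences between scalings was not tested.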
